A study of Mus musculus with 7 samples.

Results

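Chemokines and their receptors were examined in alveolar macrophages of Cish knockout (KO) and wild-type (WT) mice. Members were taken by gene symbol: every CC and CXC chemokine and receptor with a number in its symbol, the atypical receptors Ackr1 to Ackr4, and Cx3cl1, Cx3cr1, Xcr1 and Ccrl2. This gave 62 of the 26143 genes with a symbol in the deposited count table, of which 58 had at least 1 read. RNA had been sequenced from sorted alveolar macrophages of 4-month-old mice, with 3 KO libraries (Cish-/-, C57BL/6) and 4 WT libraries (C57BL/6), and no treatment is named for either group. Cish encodes a protein of the suppressor of cytokine signalling family that is induced through STAT5. The series asks how this brake shapes the lung-specific state of the cells. The sorting markers are not given. Whether the libraries are separate animals is not stated, so the p-values speak of variation among 7 libraries, which may be technical.

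Chemokines are small secreted proteins that steer leukocytes along concentration gradients by binding receptors coupled to inhibitory G proteins. Resting alveolar macrophages carry few trafficking receptors, and when they sense microbes or injury they make chemokines that bring neutrophils and monocytes into the airspace. Atypical receptors bind chemokines without G-protein signalling and remove or present them. Many inflammatory chemokine genes are switched on by NF-kB, and Ccl17 and Ccl24 are known targets of IL-4 acting through STAT6.

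For the neighbouring neutrophil attractants Cxcl1, Cxcl2 and Cxcl3, which differ in pattern, and for Ccl17, the tested member with the largest log2 fold change, the 160 bases before the RefSeq transcript start (GRCm38.p6, the assembly of mm10) are shown. In the genes for Cxcl1, Cxcl2 and Cxcl3, capitals mark matches, on either strand, to the NF-kB-type letters GGG, any 2 bases and TTTCC. In Ccl17, capitals mark the STAT-type letters TTC and GAA with 4 or 3 bases between them. The stretches lie at chr5:90891085-90891244 (Cxcl1), chr5:90903739-90903898 (Cxcl2), chr5:90785941-90786100 (Cxcl3) and chr8:94810293-94810452 (Ccl17), each on the plus strand.
Cxcl1: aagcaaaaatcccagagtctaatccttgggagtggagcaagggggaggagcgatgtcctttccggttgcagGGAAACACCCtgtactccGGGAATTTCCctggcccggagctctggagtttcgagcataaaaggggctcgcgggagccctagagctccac
Cxcl2: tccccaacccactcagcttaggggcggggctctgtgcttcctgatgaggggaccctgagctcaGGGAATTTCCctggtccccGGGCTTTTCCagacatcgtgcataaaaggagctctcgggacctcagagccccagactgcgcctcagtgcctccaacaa
Cxcl3: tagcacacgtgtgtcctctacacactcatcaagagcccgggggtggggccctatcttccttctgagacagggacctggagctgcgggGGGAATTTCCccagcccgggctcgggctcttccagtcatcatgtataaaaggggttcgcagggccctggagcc
Ccl17: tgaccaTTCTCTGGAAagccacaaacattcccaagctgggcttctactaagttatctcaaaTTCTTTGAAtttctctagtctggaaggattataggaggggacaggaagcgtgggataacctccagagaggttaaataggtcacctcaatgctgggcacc
Of the 62 members, 46 had a RefSeq promoter entry, and 6 of these held the NF-kB-type letters within 250 bases before a start: Cxcl1, Cxcl2, Cxcl3, Ccl9, Ccl20 and Ccr3. Among all 32851 promoter windows of that length, 1.41% held them. The STAT-type letters with 4 bases between were present for Ccl17 alone among the 46 and in 5.85% of all windows, and with 3 bases between for 4 members and in 7.02% of all windows. The matches do not overlap one another, and they describe letters, not binding.

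Total counts of genes with a symbol lay between 26676988 and 34347648 per library. Cish itself averaged 12.7 CPM ± 1.73 in KO (SD, n = 3) and 45.5 CPM ± 16.4 in WT (SD, n = 4), without overlap, and edgeR gave it an adjusted p of 0.0519. CPM here are counts scaled to the library totals with TMM factors. All 15 alveolar macrophage markers on the list used were tested, led by Chil3, and they summed to between 53724 and 86962 CPM in KO and between 28691 and 64546 CPM in WT. Chil3 gave most of each group's sum, and the markers did not move together: 9 had positive log2 fold changes, and DESeq2 called Mrc1 higher (0.29) and Siglecf and Cidec lower (-0.41 and -0.64), while edgeR called 0. Neutrophil markers summed to 31.5 to 52.5 CPM in KO and 37.0 to 61.8 CPM in WT, with 10 of 15 below 1 CPM in every library and Ly6g without reads. Dendritic cell markers summed to 18.4 to 31.6 CPM in KO and 24.5 to 28.3 CPM in WT, and 0 of 10 were without reads. Endothelial markers were the list whose sums separated the genotypes upward, at 26.9 to 42.1 CPM in KO and 13.3 to 20.8 CPM in WT. Of its 8 genes, 7 were tested and had positive log2 fold changes, 4 were called by DESeq2 and 0 by edgeR, and 0 were without reads. In 5 other lists too most tested markers had positive log2 fold changes: 10 of 10 for T and NK cells, 11 of 14 for monocytes and interstitial macrophages, 8 of 9 for epithelium, 4 of 4 for fibroblasts and 4 of 4 for erythroid cells. The sums of these 5 lists overlapped between the genotypes. The most abundant epithelial marker, Epcam, went the other way and was lower in KO without overlap (log2 fold change -2.25, SE 0.67, edgeR adjusted p 0.143). The epithelial sums were 179 to 198 CPM in KO and 194 to 381 CPM in WT. DESeq2 called 1 gene of these 5 lists, in the T and NK cell list, and edgeR 0. Positive log2 fold changes were fewer in the remaining lists: 3 of 8 tested B cell, 3 of 6 dendritic cell and 3 of 6 neutrophil markers. Eosinophils had 1 of 2, and mast cells and basophils 1 of 1. Eosinophil sums were lower in KO without overlap, at 373 to 455 CPM against 522 to 587 CPM in WT. They were almost entirely Siglecf, which is also on the alveolar macrophage list. The other 5 eosinophil genes stayed below 1 CPM in every library, so the sums do not speak of eosinophils. The part of these cells in any result was not tested. In sorted bulk RNA, more cells of a type and more RNA per cell cannot be told apart.

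No member passed the main test. A quasi-likelihood F test of edgeR, fitted to the whole table, kept 37 of the 62 members after its filter on low counts and called 0 of them at an adjusted p below 0.05. It called 0.0862% of all 12759 genes tested. The lowest adjusted p among members was 0.0519, for Cxcl3. DESeq2 gave adjusted p-values for 38 members and called 4: Cxcl3 and Cxcr1 were higher in KO, and Cx3cl1 and Cxcl14 were lower. The share is 10.5% of members, beside 5.71% of all genes called by that tool (2.68% higher and 3.02% lower). An unadjusted edgeR p below 0.05 was found for 12 of 37 members, 9 with positive and 3 with negative log2 fold changes, beside 18% of all genes tested (9.15% positive and 8.85% negative). In 8 of 37 the KO and WT libraries did not overlap, 5 higher and 3 lower in KO, beside 16% of all genes tested (7.23% higher and 8.72% lower). Log2 fold changes (KO over WT) were positive for 26 members and negative for 11. Their median was 0.63, beside a median of 0.00 over all genes tested and the marker lists given above, of which several but not all were mostly positive. The member counts are over those that passed the filter, not over all 62.

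**Figure D1:**
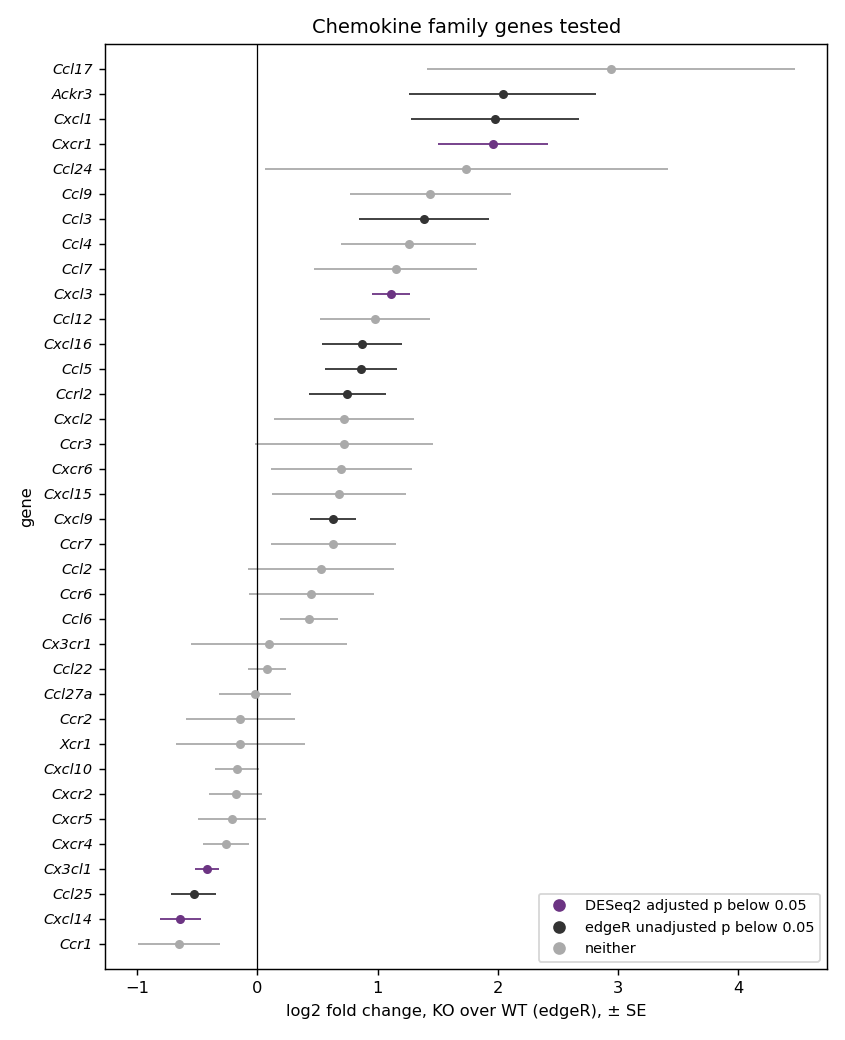
Log2 fold change (KO over WT, edgeR) with its SE for 36 of the 37 members tested, ordered by size, with colours for the DESeq2 calls and for unadjusted edgeR p-values. Points range from 2.94 for Ccl17 to -0.65 for Ccr1, and the widest errors belong to Ccl24 and Ccl17.

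Among the CXC chemokines that act on Cxcr2 and attract neutrophils, Cxcl3 was higher in every KO library than in any WT library. It had 28.0, 24.7 and 28.2 CPM in KO 1 to KO 3, against 14.9, 12.1, 9.10 and 13.7 CPM in WT 1 to WT 4. The KO libraries were close together, and the lowest of them lay above the highest WT library, WT 1. This is a log2 fold change of 1.11 (SE 0.16), or 2.16-fold (adjusted p 0.0519 in edgeR, 1.46e-07 in DESeq2). DESeq2 called Cxcl3 whichever of the 7 libraries was left out (adjusted p 1.36e-08 to 0.000109). Of 15 alternatives to the edgeR fit 9 called it, with adjusted p-values of 1.46e-07 to 0.225.

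Cxcl1 and Cxcl2, main neutrophil attractants of mouse macrophages whose genes lie beside Cxcl3, did not separate the genotypes. Cxcl1 had 118, 56.9 and 7.43 CPM in KO 1 to KO 3, against 11.1, 27.2, 13.8 and 9.73 CPM in WT 1 to WT 4. KO 1 and KO 2 lay above every WT library and KO 3 below every one. Its log2 fold change of 1.98 (SE 0.70) had an edgeR adjusted p of 0.192, and without KO 3 it was 2.5 with an adjusted p of 0.0327, in a fit that called 1.67% of all genes. Without KO 1 it was 1.06 with an adjusted p of 0.666. Over the 15 alternatives the adjusted p of Cxcl1 ranged from 0.0278 to 0.666. Cxcl2, the most abundant of these ligands, had 567, 705 and 108 CPM in KO 1 to KO 3, against 181, 458, 339 and 134 CPM in WT 1 to WT 4. Here again KO 1 and KO 2 were the highest libraries and KO 3 the lowest, and the log2 fold change was 0.72 (SE 0.58, edgeR adjusted p 0.549). Cxcl15, a lung epithelial chemokine, reached at most 1.68 CPM, and Cxcl5 had 3 reads in all libraries together. Of the 50-base windows of Cxcl2 transcripts (GENCODE M21), 5.84% also occur in another gene, chiefly Cxcl3. For Cxcl3 the share is 4.24%, chiefly in Cxcl2, so some reads could be counted for one another. Cxcl2 was far more abundant than Cxcl3, so a small share of its reads could be a large part of the Cxcl3 count. This was not tested.

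**Figure D2:**
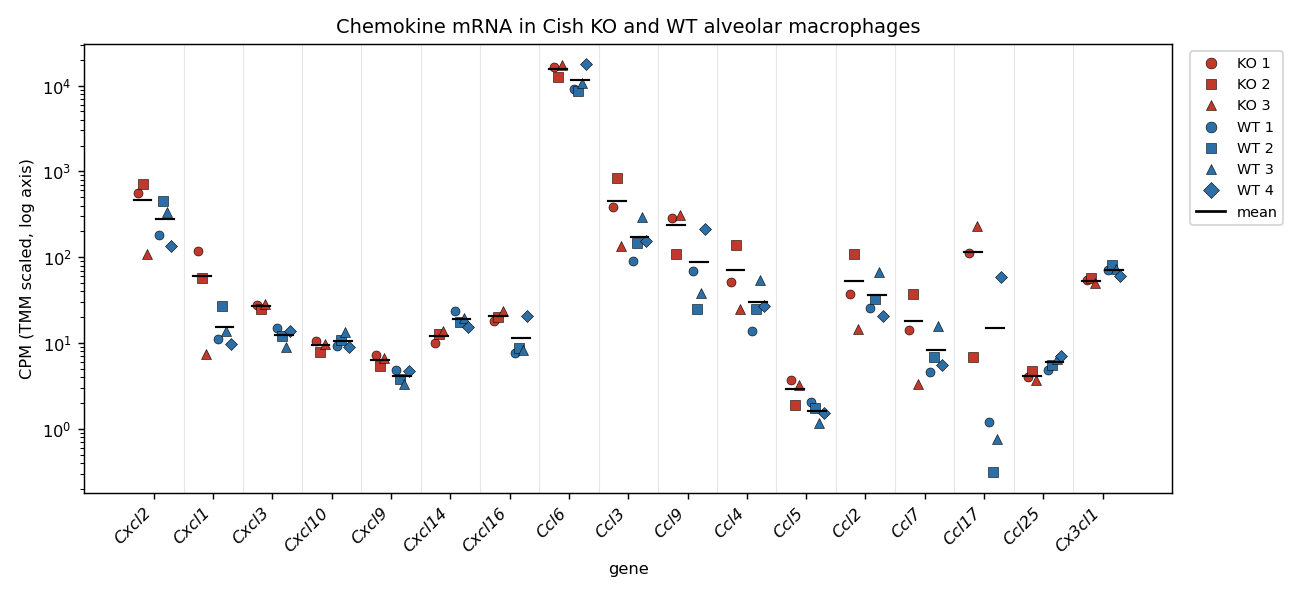
CPM of the 17 ligands named by the rule, on a log axis, in each KO library (red) and WT library (blue), with bars for the group means. Cxcl3, Cxcl9, Cxcl14, Ccl25 and Cx3cl1 show no overlap between the genotypes, whereas KO 3 lies apart from KO 1 and KO 2 for Cxcl1 and Cxcl2, and WT 4 lies apart from the other WT libraries for Ccl17 and Cxcl16.

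Ccl3, Ccl4, Ccl5, Ccl6, Ccl9 and Ccl24, inflammatory CC chemokines, were the most abundant group of ligands, and all 6 that were tested had positive log2 fold changes, with 0 called by either tool. Ccl6, a Ccr1 ligand made constitutively by mouse myeloid cells, held between 83.0% and 92.6% of all member CPM in the KO libraries and between 86.2% and 94.0% in WT. It had 16696, 12648 and 17522 CPM in KO 1 to KO 3, against 9251, 8655, 10822 and 17678 CPM in WT 1 to WT 4. The highest library was WT 4, and the other WT libraries lay below every KO library. Its log2 fold change was 0.43 (SE 0.24, edgeR adjusted p 0.382), and without WT 4 it was 0.71 (adjusted p 0.0543). Per kilobase of exon, Ccl6 averaged 8703 RPKM ± 1453 in KO (SD, n = 3) and 6463 RPKM ± 2314 in WT (SD, n = 4), and the next ligand, Ccl3, 588 RPKM ± 457 in KO and 224 RPKM ± 114 in WT.

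Ccl9, a close relative of Ccl6 encoded next to it, had 288, 109 and 313 CPM in KO 1 to KO 3, against 68.6, 24.8, 38.4 and 216 CPM in WT 1 to WT 4. As for Ccl6, WT 4 stood with the KO libraries. In edgeR the log2 fold change was 1.44 (SE 0.67, adjusted p 0.298). Without WT 4 it was 2.43 with an adjusted p of 0.0457, in a fit that called 2.25% of all genes, and over the 15 alternatives its adjusted p ranged from 0.00277 to 0.648.

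Ccl3 and Ccl4, the macrophage inflammatory proteins, varied widely among the KO libraries. Ccl3 had 387, 828 and 136 CPM in KO 1 to KO 3, against 89.8, 149, 295 and 153 CPM in WT 1 to WT 4. KO 3 lay within the WT range and KO 1 and KO 2 above it (log2 fold change 1.39, SE 0.54, edgeR adjusted p 0.226). Ccl4 had 51.3, 138 and 24.9 CPM in KO 1 to KO 3, against 13.9, 24.8, 54.0 and 26.8 CPM in WT 1 to WT 4, so KO 2 alone exceeded every WT library. Its log2 fold change was 1.26 (SE 0.56, edgeR adjusted p 0.282). Without KO 2 the log2 fold change of Ccl3 was 0.61 and that of Ccl4 0.35. Ccl5, which attracts T cells and monocytes, was low, at 3.73, 1.90 and 3.24 CPM in KO 1 to KO 3, against 2.04, 1.75, 1.18 and 1.53 CPM in WT 1 to WT 4. KO 2 lay below WT 1, and the log2 fold change was 0.86 (SE 0.30, edgeR adjusted p 0.185).

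Ccl24, an eosinophil attractant acting on Ccr3, was present in some libraries and without reads in others. It had 83, 0 and 285 reads in KO 1 to KO 3, against 0, 0, 0 and 169 reads in WT 1 to WT 4. Each genotype thus held libraries with and without reads, and the edgeR adjusted p was 0.621. A count of 0 allows up to 3 reads in that library, by counting error only. Ccl11 had 9 reads in all and Ccl26 none.

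Among the monocyte attractants that act on Ccr2, the abundant ones were highest in KO 2 and lowest in KO 3. Ccl2, the main such ligand, had 37.0, 108 and 14.6 CPM in KO 1 to KO 3, against 25.5, 32.7, 68.2 and 20.8 CPM in WT 1 to WT 4. KO 2 was the highest library and KO 3 the lowest, and a log2 fold change of 0.53 (SE 0.61; adjusted p 0.682 in edgeR) turned to -0.51 without KO 2. Ccl7 had 14.3, 37.3 and 3.35 CPM in KO 1 to KO 3, against 4.59, 6.88, 16.0 and 5.54 CPM in WT 1 to WT 4, again with KO 2 highest and KO 3 lowest. Its log2 fold change was 1.15 (SE 0.68, edgeR adjusted p 0.405), and 0.10 without KO 2. Ccl12 did not overlap between genotypes but was scarce, at 0.505 to 0.627 CPM in KO and 0.125 to 0.445 CPM in WT, with an edgeR adjusted p of 0.300.

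Ccl8, a ligand of Ccr8 in the mouse, had reads in every KO library and in no WT library. The counts were 18, 5 and 10 reads in KO 1 to KO 3 and 0 in each of WT 1 to WT 4. Set against a floor of 3 reads over the WT group, the pooled KO level was 17.3-fold higher, with no allowance for counting error or spread in KO. The filter removed the gene from the main test; with no filter edgeR gave an adjusted p of 0.0118, in a fit that called 1.79% of all genes. Ccl1, the other Ccr8 ligand, had 19 reads in all. Of the other scarce members, Cxcl17 had 13 reads in KO and 0 in WT (6.83-fold above the same floor, adjusted p 0.0678 by edgeR with no filter). The Ccl17 and Ccl22 receptor Ccr4 had 10 and 0 (5.25-fold above that floor, adjusted p 0.114 by edgeR with no filter).

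The chemokines that attract lymphocytes and dendritic cells held the member with the largest log2 fold change among the 37 tested, Ccl17, which binds Ccr4. It had 111, 6.84 and 229.6 CPM in KO 1 to KO 3, against 1.203, 0.313, 0.764 and 58.4 CPM in WT 1 to WT 4. WT 4 stood above KO 2, while each KO library was above WT 1, WT 2 and WT 3. With all libraries the log2 fold change was 2.94 (SE 1.53, edgeR adjusted p 0.352). Without WT 4 it was 7.22 (SE 1.26) with an adjusted p of 0.0391, in a fit that called 2.25% of all genes. WT 4 was the WT library that stood with KO, so leaving it out favours this call. Without KO 3 the log2 fold change was 1.97 (edgeR adjusted p 0.578). The adjusted p of Ccl17 over the 15 alternatives ranged from 0.002 to 0.639. The lowest came with replicate number as a block, in which WT 4 takes no part. Ccl22, the other Ccr4 ligand, did not share this spread: it lay between 7.06 and 10.5 CPM in KO and between 7.42 and 8.50 CPM in WT (log2 fold change 0.08, SE 0.16, edgeR adjusted p 0.825). Ccl22 also counts among the dendritic cell markers.

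Ccl25, a Ccr9 ligand known from thymus and gut, had 4.03, 4.78 and 3.68 CPM in KO 1 to KO 3, against 4.90, 5.60, 6.46 and 7.07 CPM in WT 1 to WT 4. The groups did not overlap, though KO 2 and WT 1 were close, and the log2 fold change was -0.53 (SE 0.19, edgeR adjusted p 0.191). Ccl27a was near 1 CPM in all libraries, and 45% of its 50-base windows occur in other genes. Ccl19, Ccl21a, Ccl21b, Ccl27b and Ccl28 had between 2 and 20 reads each. Ccl21a, Ccl21b, Ccl27b and Ccl19 share between 52% and 100% of their windows with copies, so their counts are uncertain. Ccl20 and Ccl21c had no reads.

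Of the interferon-inducible ligands of Cxcr3, which attract effector T cells, Cxcl9 did not overlap between genotypes and Cxcl10 did. Cxcl9 had 7.23, 5.40 and 6.69 CPM in KO 1 to KO 3, against 4.81, 3.81, 3.31 and 4.69 CPM in WT 1 to WT 4. Its log2 fold change of 0.63 (SE 0.19) passed neither test (adjusted p 0.149 in edgeR, 0.0514 in DESeq2). Cxcl10 lay between 7.93 and 10.6 CPM in KO and between 9.11 and 13.5 CPM in WT (log2 fold change -0.17, SE 0.18, edgeR adjusted p 0.638). Cxcl13, a B-cell attractant, had 2 reads and was not tested. Cxcl11 had no reads; over the 7 libraries a count of 0 allows up to 0.014 CPM.

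Cxcl14, a chemokine of epithelia and resting tissues, and Cx3cl1, the membrane-bound chemokine fractalkine, were the members that DESeq2 called lower in KO. Cxcl14 had 10.04, 12.9 and 13.8 CPM in KO 1 to KO 3, against 23.4, 17.7, 19.4 and 15.4 CPM in WT 1 to WT 4. Every KO library was below every WT library. KO over WT, the log2 fold change was -0.64 (SE 0.17; adjusted p 0.121 in edgeR, 0.0141 in DESeq2). Among the 15 alternatives 3 passed (adjusted p 0.0141 to 0.458), and the DESeq2 call ended without KO 1, WT 1 or WT 3, with an adjusted p of up to 0.249.

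Cx3cl1 had 54.0, 57.0 and 49.6 CPM in KO 1 to KO 3, against 71.7, 80.6, 73.1 and 61.0 CPM in WT 1 to WT 4. The groups did not overlap, WT 4 being the WT library nearest to KO. KO over WT this was -0.42 on the log2 scale (SE 0.10), 1.34-fold lower (adjusted p 0.109 in edgeR, 0.0156 in DESeq2). It passed in 3 of 15 alternatives (adjusted p 0.0156 to 0.425), and DESeq2 kept it without KO 2 and without WT 4 but lost it without each of the other 5 libraries. Its receptor Cx3cr1, a marker of monocytes and interstitial macrophages, was at 0.132 to 0.622 CPM in KO and 0.0954 to 0.392 CPM in WT.

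Cxcl16, a membrane-bound ligand of Cxcr6 that also acts as a scavenger receptor, had 18.2, 20.2 and 23.5 CPM in KO 1 to KO 3, against 7.58, 8.82, 8.34 and 20.5 CPM in WT 1 to WT 4. WT 4 lay among the KO libraries and the other WT libraries below 9 CPM. Its log2 fold change was 0.87 (SE 0.33, edgeR adjusted p 0.211). Without WT 4 it was 1.32 (SE 0.14, adjusted p 0.0109), in a fit that called 2.25% of all genes. Over the 15 alternatives the adjusted p of Cxcl16 ranged from 0.00755 to 0.496. Exons of Zmynd15 on the other strand cover 18.3% of its exon length, and the libraries do not mark strand.

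Among the 19 signalling receptors, all had reads and 13 were tested. Cxcr1, a receptor for neutrophil-attracting CXC chemokines, was higher in every KO library than in any WT library. It had 69.0, 35.6 and 26.4 CPM in KO 1 to KO 3, against 11.3, 5.53, 6.94 and 21.2 CPM in WT 1 to WT 4. KO 3 and WT 4 were the nearest libraries of the groups. Cxcr1 thus differed by 1.96 on the log2 scale (SE 0.46), or 3.89-fold (adjusted p 0.102 in edgeR, 0.0294 in DESeq2). It passed in 5 of 15 alternatives (adjusted p 0.002 to 0.441). Among them was the edgeR fit without WT 4 (log2 fold change 2.46, adjusted p 0.0347), which called 2.25% of all genes. The DESeq2 call ended without KO 1, KO 2, WT 1, WT 2 or WT 3, with an adjusted p of up to 0.417. Cxcr2, the paired receptor that marks neutrophils, was at 2.67 to 3.49 CPM in KO and 2.64 to 4.13 CPM in WT (log2 difference -0.18, SE 0.22, adjusted p 0.701 in edgeR).

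Ccr1 and Cxcr4 were the most abundant signalling receptors per length in both genotypes, at 62.0 RPKM ± 11.96 and 33.98 RPKM ± 8.47 in KO (SD, n = 3) and 97.0 RPKM ± 46.7 and 40.7 RPKM ± 7.61 in WT (SD, n = 4). Their ranges overlapped between the genotypes, and in KO Cxcr1, at 29.3 RPKM ± 15.04, lay within 1 SD of Cxcr4. Ccr1, the receptor of Ccl3, Ccl6 and Ccl9, had 139, 181 and 207 CPM in KO 1 to KO 3, against 167, 325, 439 and 168 CPM in WT 1 to WT 4. WT 2 and WT 3 lay above the other 5 libraries (log2 fold change -0.65, SE 0.34, edgeR adjusted p 0.350). Cxcr4, which retains leukocytes in tissue through Cxcl12, had 43.8, 71.0 and 69.5 CPM in KO 1 to KO 3, against 65.6, 63.3, 93.5 and 71.7 CPM in WT 1 to WT 4 (log2 fold change -0.26, SE 0.19, edgeR adjusted p 0.505). Its ligand Cxcl12 had 24 reads in KO and 25 in WT.

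Ccr2, which brings monocytes to inflamed tissue, ranged from 3.76 to 12.9 CPM in KO and from 4.199 to 10.1 CPM in WT (edgeR adjusted p 0.906). Ccr7, the lymph node homing receptor of dendritic cells, was at most 3.24 CPM. Ccr3, Ccr6, Cxcr5, Cxcr6 and Xcr1, receptors best known from eosinophils, lymphocytes and dendritic cells, stayed at or below 1.19 CPM, with edgeR adjusted p-values of 0.570 to 0.919. Ccr4, Ccr8, Ccr9, Ccr10, Ccr1l1 and Cxcr3 were not tested, with 3 to 34 reads each.

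**Figure D3:**
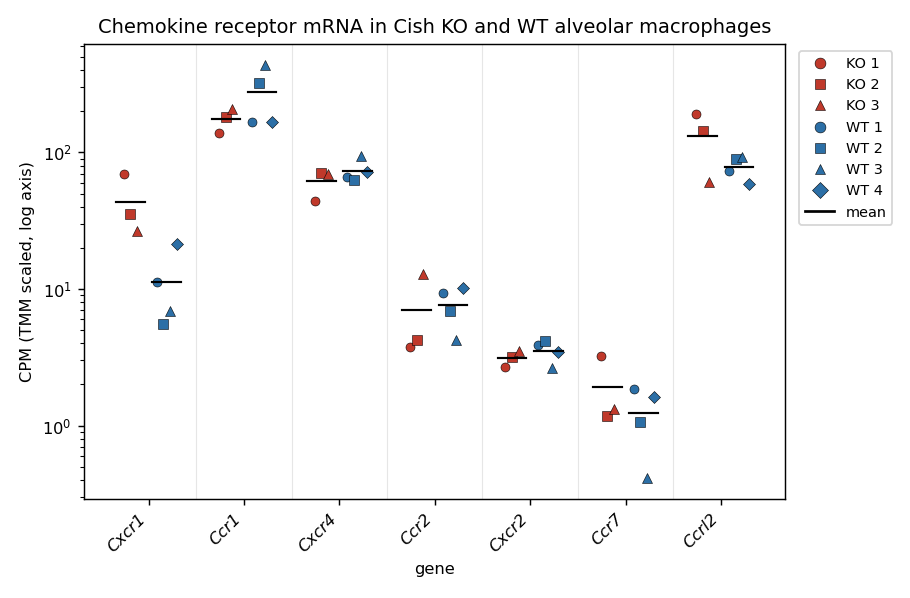
CPM of 7 receptors, on a log axis, in each KO library (red) and WT library (blue), with bars for the group means. Cxcr1 separates the genotypes, with KO libraries at 26.4 CPM or more and WT libraries at 21.2 CPM or less, whereas Cxcr2 stays between 2.64 and 4.13 CPM in both.

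Of the atypical receptors, Ccrl2, which binds chemerin and is induced in activated macrophages, was abundant. It had 191, 145 and 60.7 CPM in KO 1 to KO 3, against 73.6, 89.2, 92.5 and 59.1 CPM in WT 1 to WT 4. KO 1 and KO 2 lay above every WT library and KO 3 within the WT range. In edgeR the log2 fold change was 0.75 (SE 0.32, edgeR adjusted p 0.265). Without KO 3 it was 1.09 with an adjusted p of 0.0349, in a fit that called 1.67% of all genes. Over the 15 alternatives the adjusted p of Ccrl2 ranged from 0.0189 to 0.750. Ccrl2 lies 3.75 Mb from Cish on chromosome 9, so an effect of the targeted region and of the loss of Cish cannot be told apart. The same limit holds for other members on chromosome 9, among them Ackr4 at 3.17 Mb, Ccr4 at 7.19 Mb and Ccr1 at 16.7 Mb from Cish. Ackr3, a scavenger of Cxcl12 also found in endothelium, had 1.25, 0.894 and 0.809 CPM in KO 1 to KO 3, against 0.140, 0.656, 0 and 0.156 CPM in WT 1 to WT 4. The groups did not overlap (log2 fold change 2.04, SE 0.78, edgeR adjusted p 0.220, and 3.25 with 0.178 without WT 2). The sums of the endothelial markers given above separated the genotypes in the same direction, and a link to Ackr3 was not tested. Ackr1, Ackr2 and Ackr4 had 7, 37 and 9 reads in all.

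Members that varied alike across libraries formed groups that crossed genotype, a description chosen after their values were seen. Cxcl1, Cxcl2 and Ccrl2 were highest in KO 1 and KO 2, and Ccl2 and Ccl7 highest in KO 2, with KO 3 lowest or next to lowest of all 7 libraries for each of these 5. Ccl3 and Ccl4 had KO 2 highest and KO 3 within the WT range. Ccl17, Ccl24, Ccl9, Ccl6 and Cxcl16 had WT 4 above the other 3 WT libraries, by 1.85-fold over their mean for Ccl6, 2.49-fold for Cxcl16, 4.92-fold for Ccl9 and 76.8-fold for Ccl17. Cxcl3, Cxcr1, Cxcl9, Cxcl14, Cx3cl1, Ccl25, Ackr3 and Ccl12 kept KO and WT libraries apart, 8 of 37 members tested beside 16% of all genes tested. Of these, Cxcr1 and Ccl25 also had WT 4 above the other 3 WT libraries, by 2.68-fold and 1.25-fold over their mean. The labels name no batch. In the deposited table the columns of WT 4 and KO 3 stand last, after those of the other 5 libraries, and what that order reflects is not stated. Leaving out WT 4 and KO 3 together, edgeR called 8 of 35 members, 7 higher (Cxcl1, Cxcl3, Cxcl16, Ccl9, Ccl17, Cxcr1 and Ccrl2) and Cxcl14 lower, beside 4.57% of all genes. Both libraries stood with the other genotype for several of these members, so leaving them out favours such calls. The same holds for leaving out WT 4 or KO 3 alone, and for replicate number as a block, in which WT 4 takes no part. Calls from such fits are therefore no support for a difference.

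**Figure D4:**
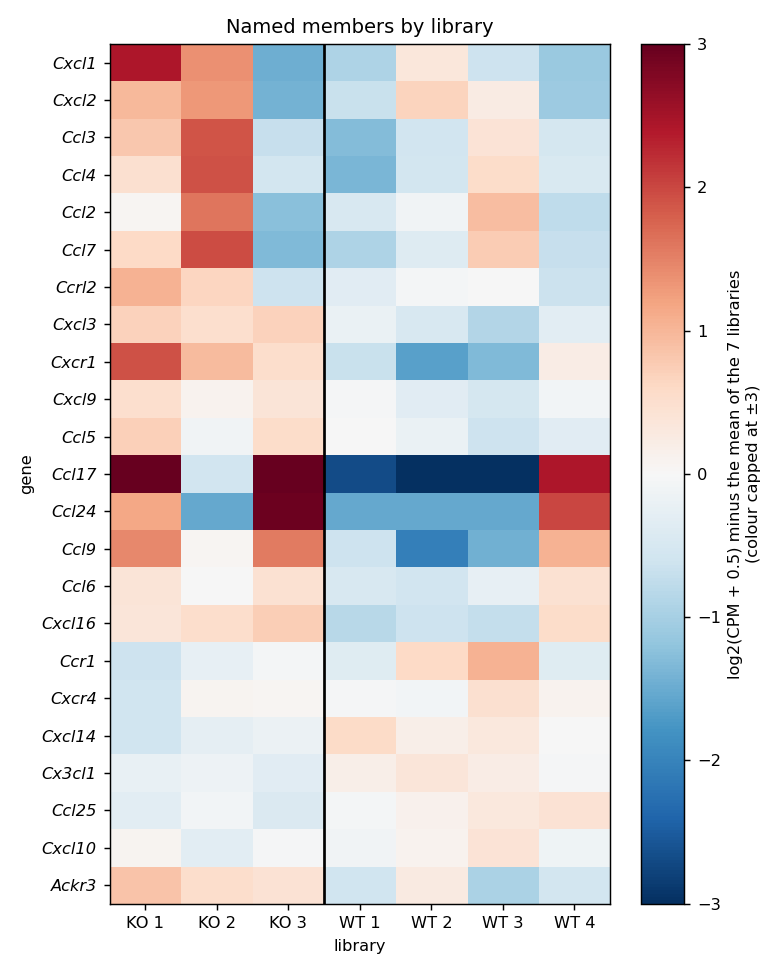
Log2(CPM + 0.5) minus the mean of the 7 libraries, for 23 members by library, with KO libraries left of the line and WT libraries right of it; red is above and blue below the mean. KO 3 is blue beside red KO 1 and KO 2 for Cxcl1, Cxcl2 and Ccrl2, and WT 4 is red beside blue WT 1 to WT 3 for Ccl17, Ccl24, Ccl9 and Cxcl16.

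Chemokine genes lie in clusters, and neighbours did not all share a value. On chromosome 8, Ccl22 (94745590 to 94751699), Cx3cl1 (94772009 to 94782427) and Ccl17 (94810453 to 94812036, GENCODE M21 on mm10) had log2 fold changes of 0.08, -0.42 and 2.94, with the SEs given above. In the chromosome 5 cluster, Cxcl3 (90786103 to 90789600) differed in pattern from Cxcl1 (90891241 to 90893115) and Cxcl2 (90903871 to 90905938), since KO 3 was the highest library for Cxcl3 and the lowest for Cxcl1 and Cxcl2. The 5 tested genes of the second chromosome 11 cluster, from Ccl5 to Ccl4, had values between 0.43 and 1.44.

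**Figure D5:**
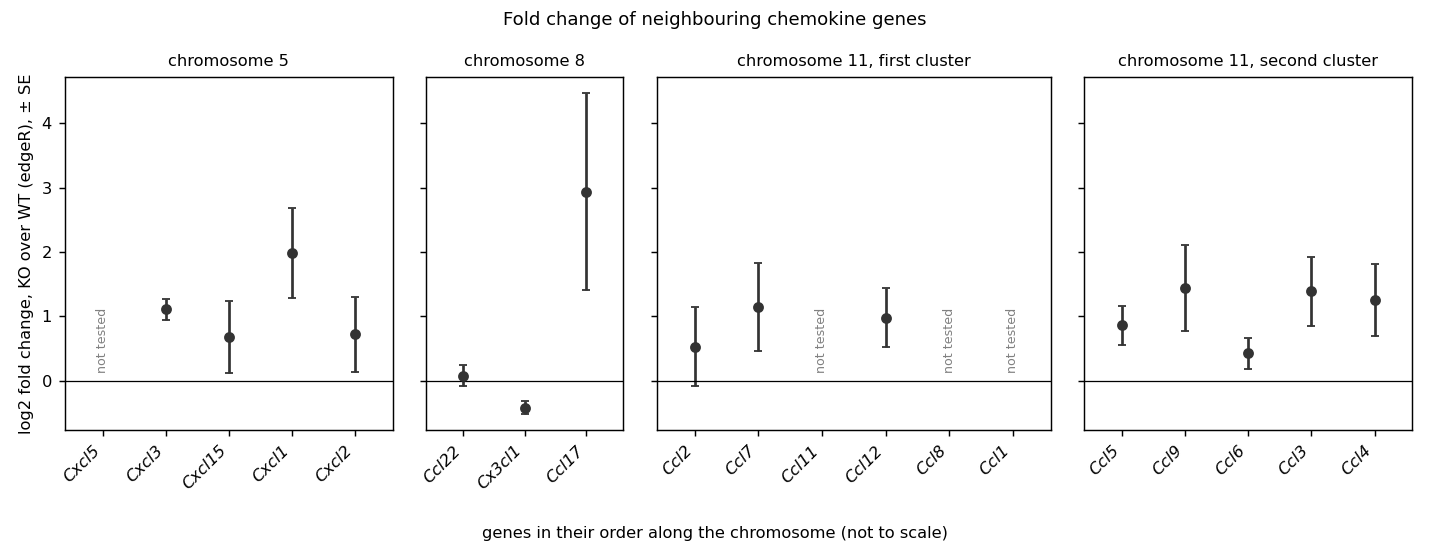
Log2 fold change (KO over WT, edgeR) with its SE for family members in 4 gene clusters, in their order along the chromosome. On chromosome 8 the point of Cx3cl1 lies below 0 between Ccl22 near 0 and Ccl17 at 2.94, and all tested genes of the chromosome 5 and 11 clusters lie above 0.

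Genes around the chemokine system were taken from lists set by their known roles. Of 43 tested genes that carry the signal of chemokine receptors, edgeR called 0 (15 at an unadjusted p below 0.05, beside 18% of all genes). DESeq2 called 3 higher and 7 lower, beside 2.68% and 3.02% of all genes. The list had 12 positive and 31 negative log2 fold changes and a median of -0.12. Lower by DESeq2 was Fgr, a Src-family kinase of phagocytes, which averaged 226 CPM ± 45.4 in KO (SD, n = 3) and 335 CPM ± 29.2 in WT (SD, n = 4). For Fgr the log2 fold change was -0.57 (SE 0.14; adjusted p 0.109 in edgeR, 0.00565 in DESeq2). Gng2, a G-protein gamma subunit, averaged 17.6 CPM ± 0.879 in KO and 26.9 CPM ± 2.02 in WT (log2 fold change -0.61, DESeq2 adjusted p 4.7e-05, edgeR 0.0564). Also lower by DESeq2 were Rgs3, Rgs14 and Rgs19, which shorten G-protein signals, with log2 fold changes of -1.11, -0.55 and -0.34, and the GTPase Rac1, with -0.20. Higher by DESeq2 were Pik3r5, a regulatory subunit of the PI3 kinase gamma that chemokine receptors activate, at 123 CPM ± 18.8 in KO and 82.7 CPM ± 7.51 in WT, together with the phospholipase Plcb2 (log2 fold change 0.48) and the arrestin Arrb1 (1.27).

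Of 39 tested genes that induce chemokine genes or restrain them, 30 had positive log2 fold changes, with a median of 0.25. edgeR called 0 of these (11 at an unadjusted p below 0.05, beside 18% of all genes) and DESeq2 called Socs3 and Il1b, both higher, beside 2.68% of all genes. Socs3, a brake on cytokine receptors of the same family as Cish, averaged 42.4 CPM ± 9.55 in KO and 13.9 CPM ± 4.37 in WT (log2 fold change 1.60, adjusted p 1.56e-08 in DESeq2, 0.0561 in edgeR). Il1b, a cytokine that induces Cxcr2 ligands, averaged 220.1 CPM ± 17.3 in KO and 135 CPM ± 46.7 in WT (log2 fold change 0.71, DESeq2 adjusted p 0.0415, edgeR 0.184). Among 16 tested receptors for other chemoattractants edgeR called 0 (7 at an unadjusted p below 0.05, beside 18% of all genes). DESeq2 called 3, all lower, beside 3.02% of all genes: the complement C5a receptors C5ar1 and C5ar2 and the nucleotide receptor P2ry6, the last 2 each with a log2 fold change of -0.58. C5ar1 averaged 699 CPM ± 130 in KO and 1012 CPM ± 140 in WT, a log2 fold change of -0.53 (DESeq2 adjusted p 0.0137, edgeR 0.128). Of 15 tested enzymes that cut or hold chemokines, edgeR called 1, Mmp8, higher at an adjusted p of 0.0427, beside 0.0862% of all genes in either direction. The call of Mmp8, a collagenase that cuts chemokines, ended without KO 1, KO 2, WT 1, WT 2 or WT 3 (adjusted p 0.0871 to 0.198 in edgeR) and held without KO 3 or WT 4. DESeq2 called Mmp8 and, with a log2 fold change of 0.84, Ctsk, both higher, beside 2.68% of all genes, and the median log2 fold change of the list was 0.64. Of the chemokines outside the symbol rule, Pf4 averaged 6.11 CPM ± 3.58 in KO and 3.01 CPM ± 1.18 in WT (edgeR adjusted p 0.236), Mif had a log2 fold change of 0.25, and Ppbp and Xcl1 were too scarce to test, with at most 11 reads in a KO library and 5 in a WT library.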

How the data were processed

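Raw counts of reads, 1 row per gene symbol, were deposited by the authors, who counted with rsubread according to the table's name. The submitters' processing notes name mm10 and DESeq2. For the annotation, strand setting and treatment of reads with several matches, the sources used here give nothing. Libraries were made with Nextera XT, per the labels' protocols, without molecular identifiers, so counting limits cover counting error only.

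Of 27179 rows, 1036 without a symbol (0.376% to 0.424% of counts) were left out, and 26 symbols turned into dates stayed as they were. In R 4.3.3, edgeR 4.0.16 compared 3 KO with 4 WT libraries on genotype alone (filterByExpr, TMM, quasi-likelihood F test with 5 residual degrees of freedom, Benjamini-Hochberg over all 12759 genes). Errors are SD between libraries or SE of the log2 fold change. The SE was derived from the edgeR test, as the absolute log2 fold change divided by the square root of F. RPKM use merged exon lengths of GENCODE M21. The test was checked on simulated data.

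Alternatives were DESeq2 1.42.0, RLE factors, library sizes only, no filter, at least 5 CPM in at least 3 libraries, voom of limma 3.58.1 with quality weights, a block on replicate number, each library left out, and WT 4 with KO 3 left out. DESeq2 on the reduced sets was added after seeing the data. Members and lists were chosen with earlier results of these data known. Values in every library were given for members with a mean of at least 10 CPM, a call by either tool or an unadjusted p below 0.05, and for Ccl24 and the scarce members, chosen after their values were seen. Values of 1 member and 1 listed gene are not reported here, though the counts over members and lists include them.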

Additional observations from a re-analysis of the deposited data

Results flagged for a closer look

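In the 4 WT libraries, WT 4 stood far above the others for 3 of the 38 genes examined (the 37 members tested and Cish), where the gap to the nearest library exceeded the share of the range set by Dixon's critical value. Chance flags about 1 in 20 such groups where values are normally distributed, a rate that need not hold for CPM. Ccl17 was at 58.4 CPM in WT 4, against 0.313 to 1.203 CPM in the other WT libraries. Ccl24 was at 5.29 CPM in WT 4, with no reads in the other WT libraries, so any reads in WT 4 would have been flagged. Cxcl16 was at 20.5 CPM in WT 4, against 7.58 to 8.82 CPM in the other WT libraries. KO groups of 3 libraries cannot be examined this way.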

How the results depend on the processing

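The count of members called was 0 higher and 0 lower in the edgeR fit and stayed so with RLE factors and with library sizes only. It was 2 higher and 2 lower with DESeq2, 3 and 1 with no filter, and 1 and 0 both with the stricter filter and with voom of limma (0.221% and 0.361% of all genes). Without WT 4 and KO 3 together it was 7 and 1 by edgeR. DESeq2 on those 5 libraries gave 10 and 2, beside 9.08% of all genes. Leaving out single libraries gave 0 to 5 higher and 0 to 1 lower by edgeR, and 1 to 9 higher and 0 to 2 lower by DESeq2 (1.1% to 8.28% of all genes), with the most calls in both without WT 4. With the replicate number as a block the count was 8 higher and 1 lower, beside 3.37% of all genes, and WT 4, which has no KO partner, then takes no part in the comparison. Deviations of KO and WT libraries with the same number correlated at -0.01, 0.14 and -0.02, so the numbers were not taken as pairs. Genes of the 5 pathway lists called higher and lower were 1 and 0 by edgeR, 7 and 10 by DESeq2, 0 and 0 with library sizes only, 4 and 5 with no filter, 2 and 0 with the stricter filter, 2 and 2 with voom, 11 and 4 with the block, and 12 and 8 without WT 4 and KO 3. Single libraries left out gave 0 to 10 higher and 0 to 3 lower. Calls over all genes differed among these fits as well. Their share was 0.0862% by edgeR, 5.71% by DESeq2, 0.0941% with library sizes only and 1.79% with no filter. It was 0.221% with the stricter filter, 0.361% with voom, 3.37% with the block and 4.57% without WT 4 and KO 3. With single libraries left out it was 0.0552% to 2.25% by edgeR. The cause was not tested. The log2 fold change of Ccl2, 0.53 in the edgeR fit, ranged from -0.51 (without KO 2) to 1.02 (without WT 3) with single libraries left out and was 0.00 with voom. For the other 21 members with full values no alternative turned the sign.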
